A study of Mus musculus with 24 samples.

Results

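The genes described here are *Uroc1*, *Bhmt*, *Itih3*, *Aldh8a1*, *Cyp2c70*, *Hal*, *Cps1* and *Hpd*, which are liver enzymes and a secreted liver protein. They are 8 of the 34745 genes in the deposited expression table and were found there by symbol. They had been chosen by their values in the comparison of *Zfp57* mutant embryos that follows, so their differences in it, and the number of them that a fit called, are given as a description, with no p and with nothing read from them. ZFP57 is a zinc finger protein that maintains DNA methylation at imprinted regions. RNA-seq was carried out on whole 129/DBA hybrid embryos at embryonic day 13.5, with 1 library per embryo, 6 embryos labelled M-Z+ and 6 labelled M-Z-. The embryos came from *Zfp57*-/- 129 mothers and *Zfp57*+/- fathers mainly of DBA/2J background, so both groups lack maternal *Zfp57*. An M-Z+ embryo (*Zfp57*-/+) carries the wild-type paternal allele, whereas an M-Z- embryo (*Zfp57*-/-) carries none. No embryo with maternal *Zfp57* was analysed here by RNA-seq. The labels give no sex, litter or batch. Reads of the Y-linked genes *Ddx3y*, *Eif2s3y*, *Kdm5d* and *Uty* summed to more than 100 in 3 of the 6 embryos of each genotype.

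The liver is the main site where amino acids are broken down and where their nitrogen is made into urea. In a mouse fetus the liver is mostly a blood-forming organ, and its hepatocytes take on most of this metabolism step by step toward birth. Of the 8 genes, 6 encode enzymes of amino acid metabolism. *Hal* (histidase) and *Uroc1* (urocanase) catalyse consecutive steps of histidine breakdown. *Hpd* acts in tyrosine breakdown, *Aldh8a1* in tryptophan breakdown, and *Bhmt* remethylates homocysteine with betaine as the donor. *Cps1* starts the urea cycle. The other two are not amino acid enzymes: *Itih3* encodes a heavy chain of the secreted inter-alpha-trypsin inhibitors, and *Cyp2c70* encodes the cytochrome P450 that makes muricholic acids, the typical bile acids of the mouse. A single age was sampled, so whether the 8 genes rise late in development could not be examined.

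Total counts on genes ranged from 12347383 to 19216288 in M-Z+ embryos and from 12005145 to 14617373 in M-Z- embryos. In a whole embryo the 18 abundant fetal liver genes listed for comparison, which include albumin (*Alb*) and alpha-fetoprotein (*Afp*), held between 0.329% and 0.850% of the counts. Fewer hepatocytes and less RNA per hepatocyte cannot be told apart in such libraries. In 3 libraries, M-Z+ 6, M-Z- 5 and M-Z- 6, long genes had relatively more counts: the slope of log2 counts on log2 gene length was 0.667 to 0.677, against 0.444 to 0.574 in the other 9 libraries. The same 3 libraries also had the lowest share of liver gene counts, at 0.329% to 0.441%, against 0.515% to 0.850% in the others. Results are therefore also given without these 3 libraries.

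Counts were scaled to a common library size by edgeR's TMM method (CPM), and TPM, which is also corrected for gene length, was used where levels of different genes are compared. All fold changes are M-Z- over M-Z+. A gene was called when edgeR's quasi-likelihood test gave a Benjamini-Hochberg adjusted p below 0.05 and the log2 fold change was beyond 0.5. *Zfp57* had 19.1, 23.7 and 40.8 CPM (lowest, median, highest) in M-Z+ embryos and 17.8, 26.5 and 27.8 CPM in M-Z- embryos. The 2 groups overlapped (two-sided exact permutation test of the means over all 924 divisions, p = 0.532), and the log2 fold change was −0.15 (standard error, SE, 0.18). The table does not say which exons the reads lie on, so this level does not check the genotype labels.

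All 8 genes were weakly expressed beside *Alb*. Per gene length, *Itih3* was the most abundant, with 22.3 ± 4.71 TPM (SD, n = 6) in M-Z+ embryos, and *Hal* was the least, with 0.493 ± 0.220 TPM. *Alb* had 2699 ± 664 TPM in the same embryos, 121 times the level of *Itih3* and 5478 times that of *Hal*. In order of their mean TPM in M-Z+ embryos, *Itih3* was followed by *Cps1* (5.53), *Cyp2c70* (3.95), *Hpd* (3.23), *Bhmt* (3.18), *Uroc1* (2.55), *Aldh8a1* (1.76) and *Hal*. *Itih3* in its lowest M-Z+ embryo (18.3 TPM) was above the highest M-Z+ value of every other gene of the 8 (12.3 TPM, *Cps1*). The ranges of neighbours from *Cps1* to *Aldh8a1* in this order overlapped. In 6 of the 8 genes the mean was under 100 counts in both groups.

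Of the 8 genes, 7 had lower mean counts in M-Z- than in M-Z+ embryos, and *Cyp2c70* alone had a higher mean. The median log2 fold change was −1.05, against −0.01 over all 16026 genes tested, of which 51.7% were below 0. None of the 8 was called by edgeR, which called 0.0811% of the genes tested. With the replicate number of the embryos as a block, which the labels do not describe as a pairing, edgeR called 4 of them (*Uroc1*, *Bhmt*, *Itih3* and *Cyp2c70*) and 0.131% of all genes. DESeq2 called 5 of them (*Uroc1*, *Bhmt*, *Itih3*, *Aldh8a1* and *Cyp2c70*) and 0.231% of all genes. Counting genes by p before adjustment, at the same limits, edgeR had 5 of them lower and 1 higher, against 0.749% and 0.792% of all genes. In CPM, all 6 M-Z- embryos were below all 6 M-Z+ embryos for 2 of the 8 (*Uroc1* and *Itih3*) and for 0.275% of all genes. None of the 8 had all M-Z- embryos above, as 0.3% of all genes did. Nothing is read from these counts, since the genes were selected on this comparison.

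**Figure D1:**
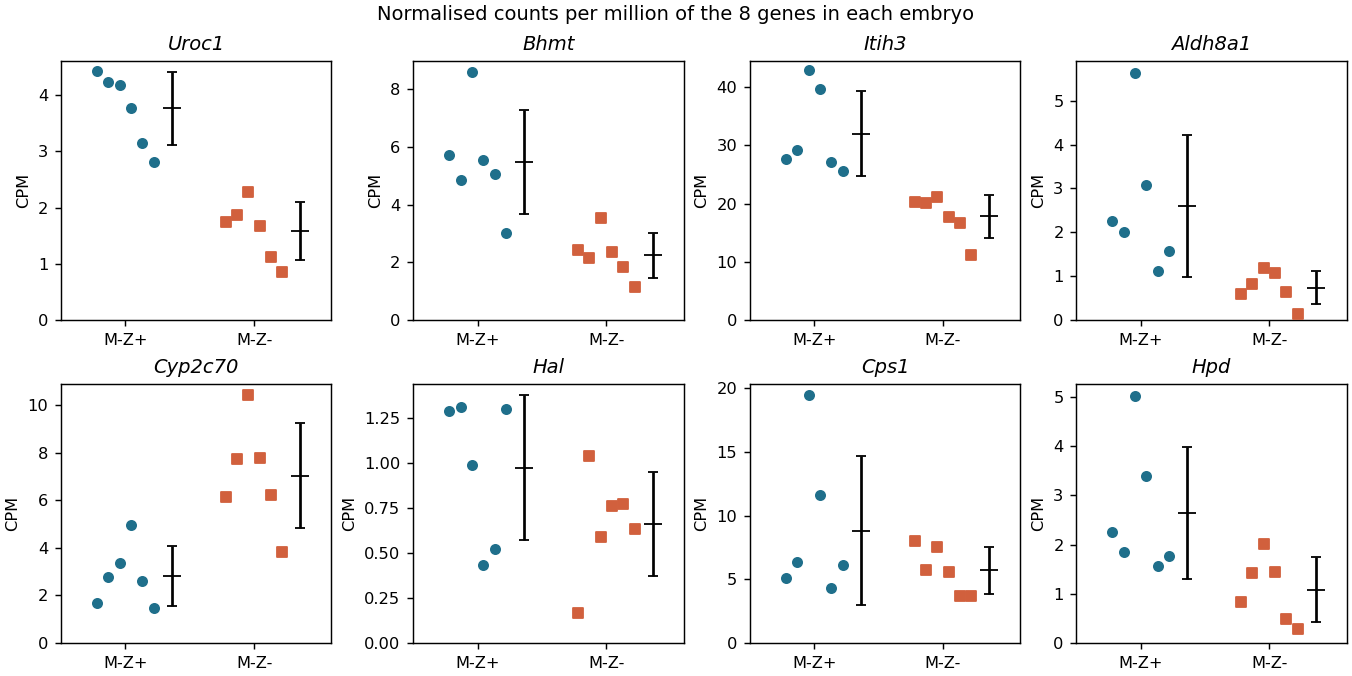
Normalised counts (CPM, vertical axes from 0) of the 8 genes in 6 M-Z+ (circles) and 6 M-Z- embryos (squares), with the mean and SD of each group as a black bar. The squares lie below all circles for *Uroc1* and *Itih3*, and 5 of 6 squares lie above all circles for *Cyp2c70*.

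The histidine genes were *Uroc1* (chromosome 6, 90333284 to 90364551 on GRCm38) and *Hal* (chromosome 10, 93488768 to 93519304). *Uroc1* had 48, 55 and 70 counts (lowest, median, highest) in M-Z+ embryos and 12, 21.5 and 27 counts in M-Z- embryos. The groups were apart, with 3.77 ± 0.653 CPM among M-Z+ against 1.59 ± 0.518 CPM among M-Z- embryos (mean ± SD, n = 6), giving a log2 fold change of −1.25 (SE 0.23). *Hal* had 8, 14.5 and 25 counts in M-Z+ embryos and 2, 9.5 and 14 counts in M-Z- embryos. The groups overlapped for *Hal*, its log2 fold change of −0.53 had a standard error of 0.38, and only 1 M-Z- embryo was below the lowest M-Z+ embryo in CPM. *Hal* is also expressed in skin, where urocanic acid accumulates because urocanase is not made there.

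*Bhmt* (chromosome 13, 93616891 to 93637961) had 58, 74 and 113 counts in M-Z+ embryos and 16, 29 and 42 counts in M-Z- embryos. It had 5.47 ± 1.81 CPM among M-Z+ against 2.24 ± 0.791 CPM among M-Z- embryos (mean ± SD, n = 6), with a log2 fold change of −1.29 (SE 0.27). In CPM, 5 of the 6 M-Z- embryos were below every M-Z+ embryo. The neighbour *Bhmt2*, which encodes a related methyltransferase of the same pathway, had a log2 fold change of −0.28 (SE 0.27) and was not called (edgeR adjusted p = 0.785).

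*Aldh8a1* (chromosome 10, 21377291 to 21396585) had the lowest log2 fold change of the 8, −1.82 (SE 0.45). It had 17, 29 and 74 counts in M-Z+ embryos and 2, 10 and 14 counts in M-Z- embryos. In CPM, 5 of the 6 M-Z- embryos were below every M-Z+ embryo. *Hpd* (chromosome 5, 123171807 to 123182727) had 24, 31 and 66 counts in M-Z+ embryos and 4, 14.5 and 24 counts in M-Z- embryos, and in CPM again 5 of 6 were below. Its log2 fold change was −1.30 (SE 0.42). For both genes M-Z+ 3 and M-Z+ 4 were the 2 highest embryos in CPM and M-Z- 6 the lowest. *Hpd* overlaps *Psmd9*, a gene of the proteasome, which had 7595 counts over the 12 libraries together with another overlapping locus against 322 for *Hpd*. How reads of overlapping genes were divided is not given, so the count of *Hpd* is uncertain in this respect. *Psmd9* itself had a log2 fold change of −0.24 (SE 0.10, adjusted p = 0.744 from edgeR).

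The urea cycle gene *Cps1* (chromosome 1, 67123026 to 67231259) had 63, 99.5 and 256 counts in M-Z+ embryos and 52, 75 and 96 counts in M-Z- embryos. The groups overlapped widely, since the high *Cps1* values of M-Z+ embryos came from M-Z+ 3 and M-Z+ 4, and the log2 fold change of −0.63 (SE 0.36) was −0.24 without M-Z+ 3.

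*Itih3* (chromosome 14, 30908573 to 30923760) had the most counts of the 8, with 343, 452.5 and 736 in M-Z+ embryos and 158, 240 and 269 in M-Z- embryos. The groups were apart in counts as well as in CPM. The log2 fold change was −0.85 (SE 0.17), the smallest standard error among the 8. *Itih1* and *Itih4* lie 5420 and 6592 bases from *Itih3* and encode other heavy chains of the same inhibitor family. *Itih1* had a log2 fold change of −0.21 (SE 0.20) and *Itih4* one of 0.28 (SE 0.28), and neither was called (edgeR adjusted p = 0.781 and 0.789). Neither *Itih2* nor *Itih5* was called, with log2 fold changes of 0.10 (SE 0.13) and 0.17 (SE 0.14), the latter at −0.0069 with surrogate variables. *Ambp*, which encodes the light chain of these inhibitors, was the most abundant of the list, with 256 TPM.

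*Cyp2c70* (chromosome 19, 40153353 to 40187333) had 21, 38 and 92 counts in M-Z+ embryos and 54, 95.5 and 124 counts in M-Z- embryos. It had 2.81 ± 1.27 CPM among M-Z+ against 7.02 ± 2.21 CPM among M-Z- embryos (mean ± SD, n = 6), giving a log2 fold change of 1.31 (SE 0.29). Of the M-Z- embryos, 5 were above every M-Z+ embryo in CPM. The sixth, M-Z- 6, had 3.81 CPM and lay below M-Z+ 4, which had 4.96 CPM. Of the other 22 listed genes of the Cyp2c family and of bile acid synthesis and transport, 7 were expressed enough to be tested and none was called. *Slc27a5*, which acts in the conjugation of bile acids, had a log2 fold change of −0.49 (SE 0.32, edgeR adjusted p = 0.753). *Abcb11*, the bile salt export pump, had −0.21 (SE 0.29, edgeR adjusted p = 0.852), which turned to 0.036 with liver RNA as a covariate. *Cyp2c68* was the most abundant of them, with 22.1 TPM over the 12 embryos. *Cyp7a1*, the rate-limiting enzyme of bile acid synthesis, was not tested, with 0 to 10 counts per embryo.

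The spread of these genes between embryos of 1 genotype was wide. In edgeR's fit 7 of the 8 had a biological coefficient of variation above the trend for genes of like abundance, as *Aldh8a1* (0.470 against 0.304), *Hpd* (0.460 against 0.302) and *Cps1* (0.419 against 0.237). *Uroc1* (0.213 against 0.289) was below the trend. In both groups the SD of the CPM was above the value that counting error alone gives for all 8 genes. Among M-Z+ embryos it was 62.3% of the mean for *Aldh8a1*, where counting alone gives 16.1%, and 50.5% against 15.8% for *Hpd*. For *Hal*, the gene with the fewest counts, it was 41.5% against 26.3%. The biological coefficients of variation of *Alb* and *Afp* were also above the trend, at 0.289 against 0.172 and 0.243 against 0.173.

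The amount of liver RNA differed between embryos of the same genotype. *Alb* ranged from 1299 to 2695 CPM (median 1882) in M-Z+ embryos and from 848 to 2530.3 CPM (median 1678) in M-Z- embryos. The means, 1991 ± 544 and 1620.3 ± 577 CPM (SD, n = 6), differed by less than the spread (two-sided exact permutation test, p = 0.268), and the log2 fold change was −0.30 (SE 0.24, adjusted p = 0.763 from edgeR), with values from −0.47 without M-Z- 3 to −0.17 without M-Z- 6. *Afp* had 2633 ± 659 CPM among M-Z+ against 2335 ± 623 CPM among M-Z- embryos (mean ± SD, n = 6, two-sided exact permutation test, p = 0.422). Of the 18 abundant fetal liver genes 17 were tested, 15 had a log2 fold change below 0, the median was −0.25, and none was called by edgeR or passed an unadjusted p below 0.05 with the fold limit. The 2 with the smallest p were *Rbp4*, the carrier of retinol, at −0.38 (SE 0.24, edgeR adjusted p = 0.753) and *Apoa2*, an apolipoprotein, at −0.43 (SE 0.28, edgeR adjusted p = 0.753).

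Each gene was therefore also expressed per 1000 counts of *Alb* in the same library, which removes differences in depth. *Uroc1* had 1.40, 2.05 and 2.45 counts per 1000 of *Alb* (lowest, median, highest) in M-Z+ embryos and 0.897, 0.981 and 1.08 in M-Z- embryos. *Bhmt* had 2.06, 2.80 and 3.35 in M-Z+ embryos and 1.26, 1.36 and 1.54 in M-Z- embryos. The SDs among M-Z- embryos were 0.0645 for *Uroc1* and 0.10 for *Bhmt*, against 0.387 and 0.527 among M-Z+ embryos. The SD was smaller among M-Z- embryos for 6 of the 8 genes, and larger for *Itih3* (1.99 against 1.86) and *Cyp2c70* (0.632 against 0.329). The means differed too. As a share of the mean, the SD was larger among M-Z- embryos for *Itih3* (17.2% against 11.3%) and *Hpd* (39.1% against 28.4%). It was smaller for the others, as for *Cyp2c70* (14.3% against 23.9%). For *Uroc1* the SD among M-Z- embryos was 6.54% of the mean, below the 22.1% that counting error alone gives, so nothing is read from how close these embryos are. *Itih3* had 14.7, 16 and 19.7 in M-Z+ embryos and 8.37, 11.4 and 14.1 in M-Z- embryos. *Aldh8a1* had 0.688, 1.17 and 2.19 in M-Z+ embryos and 0.166, 0.471 and 0.651 in M-Z- embryos. *Hpd* had 0.946, 1.25 and 1.96 in M-Z+ embryos and 0.332, 0.628 and 0.883 in M-Z- embryos. The groups were apart for these 5 genes, whereas 0.0686% of all genes had every M-Z- embryo below every M-Z+ embryo in the ratio to *Alb*. The genes were selected on this comparison, so nothing is read from that difference.

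*Cyp2c70* had 0.936, 1.36 and 1.84 counts per 1000 of *Alb* in M-Z+ embryos and 3.4, 4.5 and 5.29 in M-Z- embryos. The groups, which overlapped in CPM, were apart in this ratio, and 0.237% of all genes had every M-Z- embryo above. The groups overlapped for the other two. *Cps1* had 2.67 to 7.59 in M-Z+ and 2.99 to 4.41 in M-Z- embryos, and *Hal* had 0.160 to 1.00 and 0.0919 to 0.748. In the ratio to the summed abundant liver genes the groups were apart or overlapped for the same genes as in the ratio to *Alb*. The share over all genes was not taken for the ratio to the summed genes. Nothing is read from the separation in either ratio, since the genes were selected on this comparison.

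**Figure D2:**
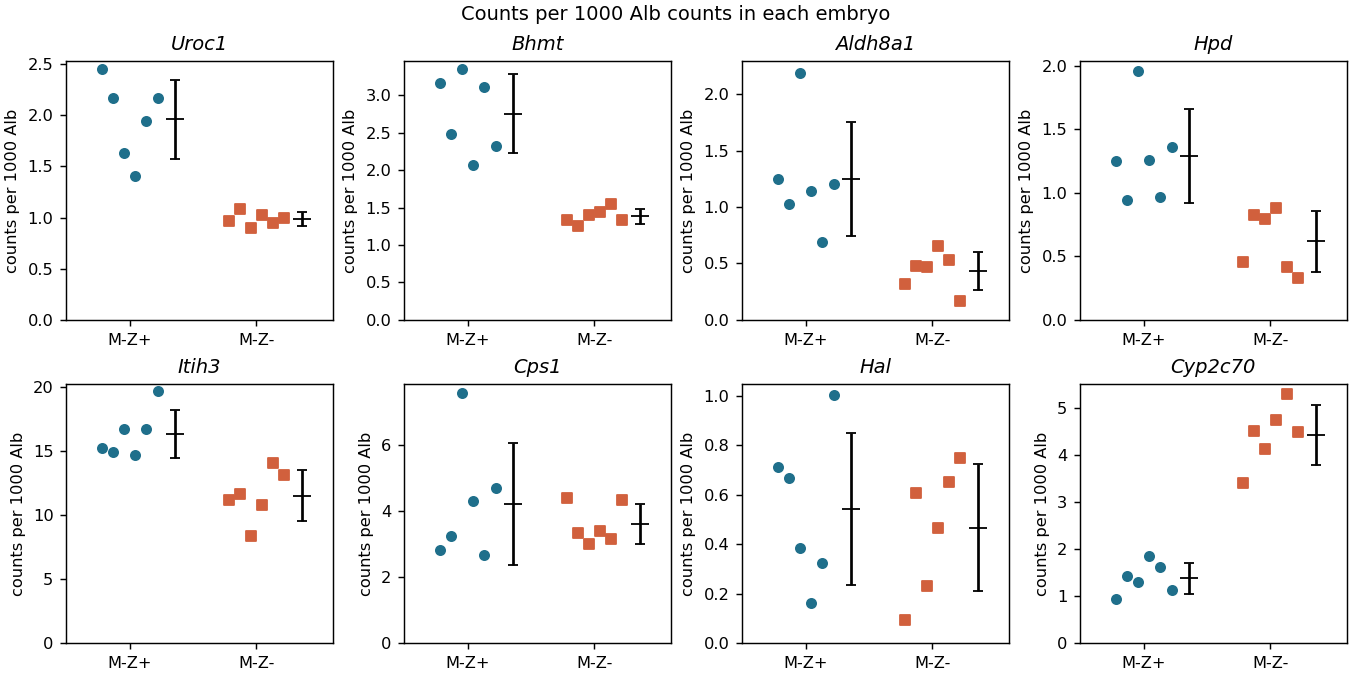
Counts of the 8 genes per 1000 *Alb* counts (vertical axes from 0) in 6 M-Z+ (circles) and 6 M-Z- embryos (squares), with the mean and SD of each group as a black bar. The squares lie below all circles for *Uroc1*, *Bhmt*, *Aldh8a1*, *Hpd* and *Itih3*, overlap them for *Cps1* and *Hal*, and lie above all circles for *Cyp2c70*.

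The ratio of *Cyp2c70* to the other genes was also taken within each library. For each count of *Uroc1* there were 0.382 to 1.31 counts of *Cyp2c70* in M-Z+ embryos and 3.52 to 5.56 in M-Z- embryos. For each count of *Itih3* there were 0.0570 to 0.125 counts of *Cyp2c70* in M-Z+ embryos and 0.305 to 0.492 in M-Z- embryos. The same separation was seen against *Bhmt*, *Aldh8a1*, *Cps1* and *Hpd*, and the ranges overlapped only against *Hal* (1.12 to 11.5 and 6 to 37). These ratios compare genes within a library and do not depend on its depth. The share of all genes with such a separation was not taken. Since the genes were selected on this comparison, nothing is read from the separation.

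**Figure D3:**
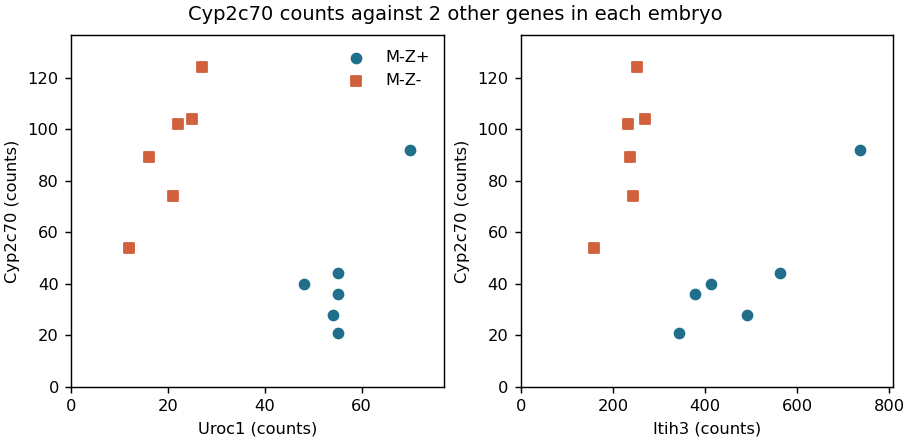
Raw counts of *Cyp2c70* (vertical axes) against those of *Uroc1* and *Itih3* (horizontal axes) in each of 6 M-Z+ (circles) and 6 M-Z- embryos (squares). M-Z+ embryos had at most 1.31 counts of *Cyp2c70* per count of *Uroc1*, and M-Z- embryos at least 3.52.

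The other genes of the same pathways were listed by pathway, with earlier results of these data known. Of 47 other listed enzymes of amino acid metabolism, 43 were tested. None was called by edgeR or by DESeq2, 33 had a log2 fold change below 0 and the median was −0.17, against −0.25 for the abundant fetal liver genes. With the length slope as a covariate these medians were −0.030 and −0.014. At an unadjusted p below 0.05 with the fold limit 2 were lower and none higher, *Hgd* of tyrosine breakdown at −0.60 (SE 0.25, adjusted p = 0.744 from edgeR) and *Kynu* of tryptophan breakdown at −0.68 (SE 0.30, adjusted p = 0.744 from edgeR). Within the urea cycle, *Ass1* had a log2 fold change of −0.49 (SE 0.23) and *Otc* one of −0.47 (SE 0.24). Both were not called (edgeR adjusted p = 0.746 and 0.749). In histidine breakdown, *Amdhd1*, the step after *Uroc1*, had −0.28 (SE 0.25) and *Ftcd*, the last step, −0.48 (SE 0.22), and neither was called (edgeR adjusted p = 0.777 and 0.745). With 1 embryo left out they ranged from −0.39 to −0.13 (without M-Z+ 3) and from −0.58 to −0.36. *Fah*, the last enzyme of tyrosine breakdown, had −0.42 (SE 0.12, adjusted p = 0.561 from edgeR). *Acmsd* of tryptophan breakdown had −0.49 (SE 0.20, adjusted p = 0.744 from edgeR).

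In methionine metabolism *Cbs*, which makes cystathionine from homocysteine, had −0.40 (SE 0.24) and *Ahcy*, which releases homocysteine, had −0.21 (SE 0.15), with edgeR adjusted p of 0.753 and 0.756. Among the other amino acids, *Aass* of lysine breakdown had −0.29 (SE 0.12) and *Sdsl*, a serine dehydratase, had −0.48 (SE 0.22), with edgeR adjusted p of 0.744 and 0.745. None of these was called. The most abundant enzyme or carrier of each list, as TPM over the 12 embryos, was *Slc25a15* of the urea cycle (28.5), *Ftcd* of histidine (5.16), *Gstz1* of tyrosine (115), *Haao* of tryptophan (14.3), *Aldh7a1* of methionine and choline (38.2) and *Glud1* of the other amino acids (286). *Tat* and *Tdo2*, the first enzymes of tyrosine and tryptophan breakdown in mature liver, had at most 1 and 15 counts in any embryo and were not tested.

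**Figure D4:**
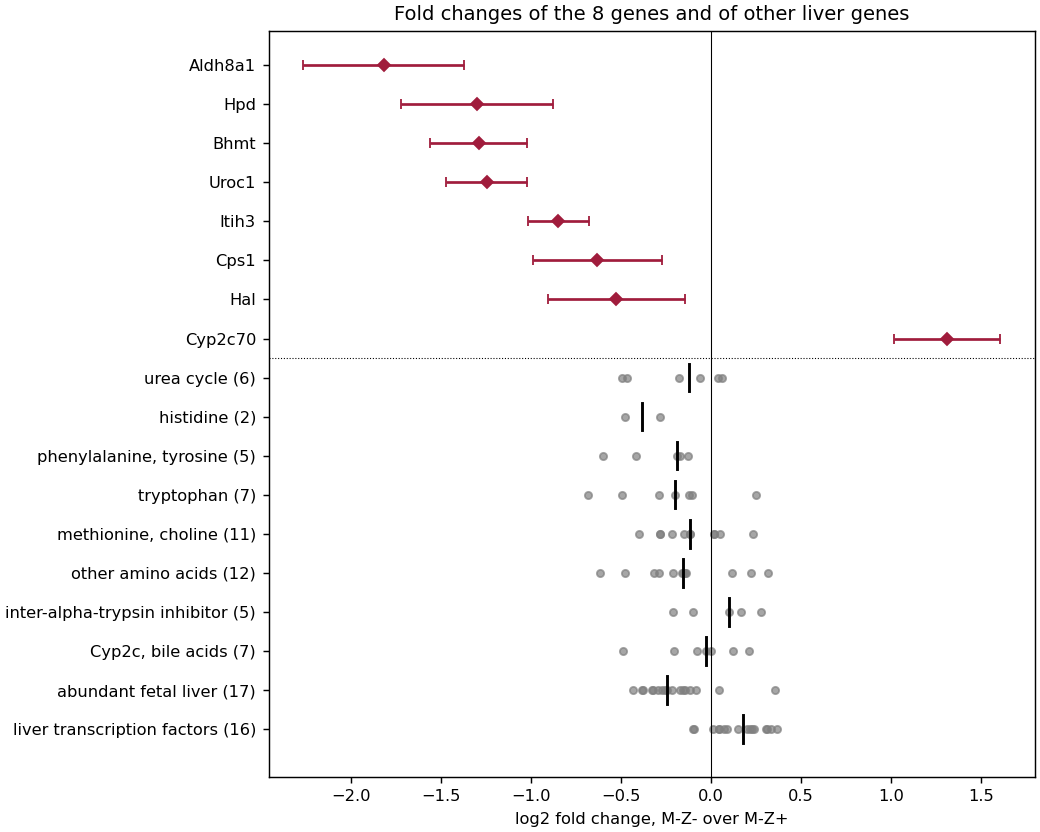
Log2 fold changes of M-Z- over M-Z+ embryos (horizontal axis) from edgeR for the 8 genes (diamonds, with standard errors) and, under the dotted line, for the other tested genes of each list (dots, number in brackets, black bar at the median). Of the 8, only *Cyp2c70* is to the right of 0, while the other amino acid enzymes lie between −0.68 and 0.32 and the median of the abundant fetal liver genes is −0.25.

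When the summed level of the abundant liver genes was taken as a covariate in edgeR, 7 of the 8 genes had a log2 fold change below 0 and the median of the 8 was −0.81. In this fit 3 of the 8 were called lower (*Uroc1*, *Bhmt* and *Itih3*) and 1 higher (*Cyp2c70*), against 0.0811% and 0.15% of all genes. It uses the same counts on which the genes were selected, so nothing is read from these calls either. *Cps1* was at −0.24 (SE 0.24) in it. Of the 43 other amino acid enzymes none was called in it, 27 were below 0 and the median was −0.07.

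Without the 3 libraries with the steep length slope the log2 fold changes of the 8 kept their directions. They were −1.07 for *Uroc1*, −1.19 for *Bhmt*, −0.76 for *Itih3*, −1.62 for *Aldh8a1*, 1.35 for *Cyp2c70*, −0.45 for *Hal*, −0.49 for *Cps1* and −0.99 for *Hpd*. None of the 8 was called by edgeR in this smaller set either, in which 16 of all genes were called.

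Within a genotype, 7 of the 8 genes were high in the embryos where *Alb* was high. Over the deviations of the 12 embryos from their genotype means, on log2(CPM + 0.5), Pearson's r with *Alb* was between 0.76 (*Cps1*) and 0.92 (*Itih3*) for these 7, and Spearman's rho was between 0.67 and 0.93. Without the 2 embryos farthest from their genotype mean in *Alb*, M-Z- 3 and M-Z- 6, r was between 0.72 and 0.90. *Cyp2c70*, with r of 0.87, was among the 7, although its difference between genotypes was opposite to theirs. *Hal* (r of −0.28) did not follow *Alb*. The points share their libraries and the amount of liver RNA in them, so these values are a description only. *Hal* had only 2 to 25 counts per embryo. Counting error alone gives 26.3% of its mean in M-Z+ and 33.6% in M-Z- embryos. The SD of its CPM was 41.5% and 43.8% of the mean. The part of counting error in its low r was not tested.

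**Figure D5:**
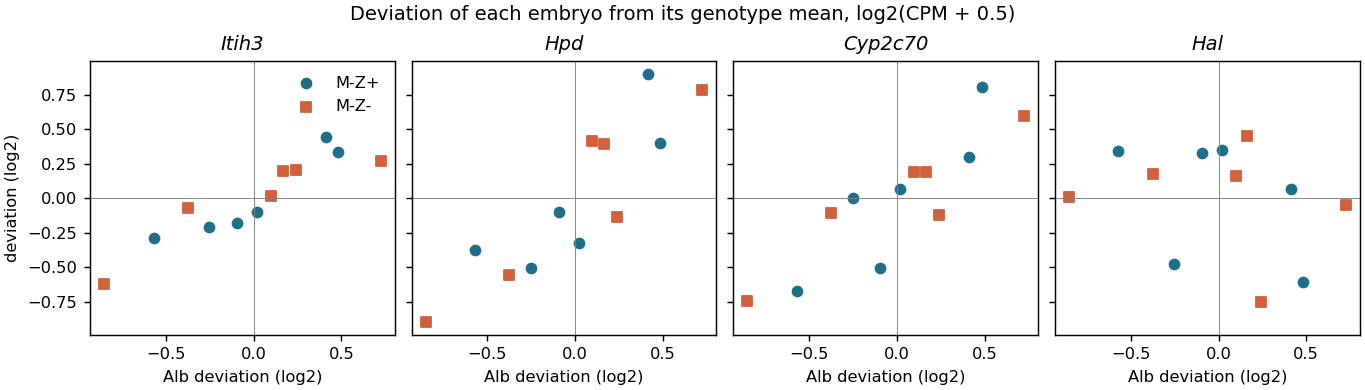
Deviation of each embryo from the mean of its genotype on log2(CPM + 0.5), for *Itih3*, *Hpd*, *Cyp2c70* and *Hal* (vertical axis) against *Alb* (horizontal axes), in 6 M-Z+ (circles) and 6 M-Z- embryos (squares). *Itih3*, *Hpd* and *Cyp2c70* follow *Alb* (r of 0.92, 0.88 and 0.87, n = 12), and *Hal*, with 2 to 25 counts per embryo, does not (r of −0.28).

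The 28 pairs among the 8 genes had a median r of 0.73, and 23 pairs were above 0. Among the tested genes outside the lists, the ones with the highest mean r with the 8 over the 12 embryos were *F2* (0.75), *Aqp1* (0.75), *Gsr* (0.75), a gene whose symbol is a date in the table (0.74) and *Ms4a3* (0.74). *F2* encodes prothrombin, which the liver secretes, *Aqp1* a water channel that red cells carry, *Gsr* glutathione reductase and *Ms4a3* a membrane protein of myeloid precursors. The median over all tested genes was 0.02. None of these 5 was called, and the log2 fold changes of the named ones were −0.13 for *F2*, 0.05 for *Aqp1*, 0.07 for *Gsr* and −0.36 for *Ms4a3*, the last with an SE of 0.58.

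Other summed markers moved together with these genes in the same embryos. For the 7 genes other than *Hal*, r over the 12 deviations was between 0.80 (*Cps1*) and 0.93 (*Itih3*) with the abundant liver list. With the epidermis list it was between 0.75 (*Cyp2c70*) and 0.94 (*Bhmt*), and with the macrophage list between 0.72 (*Cyp2c70*) and 0.93 (*Bhmt*). With the intestinal list it was between 0.62 (*Cyp2c70*) and 0.87 (*Bhmt*), at 0.75 for *Cps1*, and with the adult red cell list between 0.48 (*Cps1*) and 0.79 (*Uroc1*). With the kidney tubule list r was between −0.83 (*Uroc1*) and −0.51 (*Cyp2c70*), and with the length slope between −0.75 (*Cyp2c70*) and −0.46 (*Cps1*). *Hal* had r of −0.30 with the epidermis list. Between the genotypes the epidermis list summed to 160, 241 and 394 CPM in M-Z+ embryos (lowest, median, highest) and to 172, 264 and 335 CPM in M-Z- embryos. Its most abundant gene was *Krt5*, 7 of its 8 tested genes were below 0 in log2 fold change and none was called. *Krt10* of its upper layers had −0.43 (SE 0.38), which turned to 0.041 without M-Z+ 3, and *Lor* had −0.33 (SE 0.36), which turned to 0.037 with the length slope. The intestinal list, tested because *Cps1* is also made in intestine, summed to 7.97 to 16 CPM and 9.09 to 14.3 CPM, led by *Krt20*, and none of its 6 tested genes was called. *Cdh17*, a cadherin of the intestine, had −0.24 (SE 0.39) and *Lgals4* 0.05 (SE 0.28), whose sign changed between fits. The kidney tubule list summed to 30.8 to 53.9 CPM and 26 to 46.4 CPM, led by *Pax2*, and none of its 5 tested genes was called. *Pax8* had −0.38 (SE 0.18) and *Slc22a6*, an organic anion carrier, −0.47 (SE 0.26). *Umod* and *Slc34a1*, which define mature tubules, had 1 and 4 counts over all 12 libraries.

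The macrophage list summed to 171, 202 and 246 CPM in M-Z+ embryos and to 207, 249 and 296 CPM in M-Z- embryos, with *C1qb* as its most abundant gene. All 10 of its genes were above 0 in log2 fold change, none was called, and *Mrc1* was nearest, at 0.58 (SE 0.10, adjusted p = 0.0535 from edgeR). *Mrc1* was called by DESeq2. *Adgre1*, which encodes F4/80, had 0.37 (SE 0.17, adjusted p = 0.746 from edgeR). Of the 16 liver transcription factors tested, 14 were above 0, with a median of 0.18, and none was called. The 2 with the smallest p were *Nr5a2*, a nuclear receptor of bile acid metabolism, at 0.30 (SE 0.11, adjusted p = 0.722 from edgeR) and *Nr3c1*, the glucocorticoid receptor, at 0.31 (SE 0.14, adjusted p = 0.744 from edgeR). *Rxra* was the most abundant, with 54.6 TPM over the 12 embryos. Adult red cell genes (9 of 9 below 0, median −0.16) and embryonic globins (3 of 3 above 0, median 0.36) had no called gene. *Klf1*, a red cell transcription factor, had −0.32 (SE 0.13), while *Hbb-bh1* had 0.46 (SE 0.33) and *Hbb-y* 0.36 (SE 0.26). *Hbb-bs* and *Hbb-y* were the most abundant of these lists. The hepatoblast and bile duct list, led by *Sox9* over the 12 embryos, had 1 called gene, *Dlk1*, which is imprinted, at −2.42 (SE 0.16, adjusted p = 5.44e-06 from edgeR). *Dlk1* had 87.8 TPM in M-Z+ embryos, above *Sox9* at 85.1 TPM. In M-Z- embryos it had 16.9 TPM, against 85.7 TPM for *Sox9*. Outside the 8 genes and the other amino acid enzymes, *Dlk1* and *Mrc1* were the only listed genes that passed an unadjusted p below 0.05 with the fold limit, and the only ones called by DESeq2. The part of these cell types in the values of the 8 genes was not tested.

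Other genes known for hepatocyte maturation were at low levels at this age. Of 15 listed, 5 were tested, with log2 fold changes from −0.49 to 1.54 and a median of −0.21, and none was called by edgeR or DESeq2. *Hsd17b13*, a lipid droplet protein of hepatocytes, was the highest of them at 1.54 (SE 0.72, adjusted p = 0.746 from edgeR), with 0 to 36 counts per embryo. Its log2 fold change ranged from 1.27 to 2.34 (the latter without M-Z+ 3) with 1 embryo left out. *Hpx*, which encodes hemopexin, was the most abundant of the list, with 57.2 TPM. *Hp*, which encodes haptoglobin, was the lowest at −0.49 (SE 0.32, adjusted p = 0.753 from edgeR). *Pck1*, of gluconeogenesis, and *Cyp2e1*, a cytochrome P450 of mature liver, had 32 and 6 counts over all 12 libraries and were not tested. As a measure of developmental stage, 6 genes that mark early embryos, led by *Hmga2*, summed to 697, 859 and 1016 CPM in M-Z+ embryos and to 727, 821 and 936 CPM in M-Z- embryos. These ranges overlapped, and none of the 6 was called. *Lin28a* had −0.67 (SE 0.33, adjusted p = 0.749 from edgeR) and *Hmga2* −0.15 (SE 0.10, adjusted p = 0.753 from edgeR).

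Genes next to the 8 were examined in the same fit. The 4 nearest tested genes of each, 32 in all, had log2 fold changes from −0.39 to 0.28 with a median of 0.0011. None was called, and none passed an unadjusted p below 0.05 with the fold limit. The 8 genes lie on 7 chromosomes, and *Aldh8a1* and *Hal* share chromosome 10.

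Promoter windows of RefSeq on GRCm38.p6, 250 bases before to 50 bases after a start, were found for 7 of the 8 genes, all but *Cps1*. They are shown for *Cyp2c70*, the gene that was higher in M-Z- embryos, for *Aldh8a1*, the one with the lowest fold change, and for *Hal*, which did not follow *Alb*. Only the 250 bases before the start are printed, 5′ to 3′ on the strand of the gene. Capitals mark the matches to the motifs named below. The *Cyp2c70* sequence is chr19:40187287-40187536 on the minus strand, the *Aldh8a1* sequence is chr10:21377050-21377299 on the plus strand, and the *Hal* sequence is chr10:93488518-93488767 on the plus strand.
Cyp2c70: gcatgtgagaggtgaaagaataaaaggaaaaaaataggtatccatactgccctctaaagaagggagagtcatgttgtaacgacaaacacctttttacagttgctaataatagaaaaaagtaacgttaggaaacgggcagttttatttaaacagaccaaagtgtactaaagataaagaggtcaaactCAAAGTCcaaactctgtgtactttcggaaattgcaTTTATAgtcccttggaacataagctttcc
Aldh8a1: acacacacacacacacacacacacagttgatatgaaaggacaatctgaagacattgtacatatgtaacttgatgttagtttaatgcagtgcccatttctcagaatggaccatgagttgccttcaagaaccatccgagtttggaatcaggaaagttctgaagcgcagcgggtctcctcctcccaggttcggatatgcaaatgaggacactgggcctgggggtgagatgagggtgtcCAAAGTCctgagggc
Hal: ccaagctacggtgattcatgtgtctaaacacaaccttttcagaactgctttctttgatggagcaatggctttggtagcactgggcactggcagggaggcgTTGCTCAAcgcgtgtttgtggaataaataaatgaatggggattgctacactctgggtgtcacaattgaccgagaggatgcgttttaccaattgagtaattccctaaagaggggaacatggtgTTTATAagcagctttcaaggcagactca

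The motifs were searched on both strands. The HNF4A motif CAAAGTC was in the windows of *Cyp2c70* and *Aldh8a1*, which differed in opposite directions, and in 4.44% of 32817 promoter windows. The letters TATAAA of the TATA box were matched in *Cyp2c70* and *Hal* as the reverse complement, TTTATA, so they lie on the opposite strand. The first base of TTTATA on the strand of the gene was at −29 from the start in *Cyp2c70* and at −28 in *Hal*. In *Itih3* the match began after the start, at 3. A match on either strand was in 13.6% of all windows. The C/EBP motif TTNNGCAA was in the window of *Hal* alone, as its reverse complement TTGCNNAA, and in 10.8% of all windows. The FOXA motif TGTTTAC and the core GTTAAT of the HNF1 motif were in none of the 7 and in 3.65% and 7.10% of all windows. A match is a match of letters only, and no measurement of binding was made here.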

How the data were processed

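Of the series, the RNA-seq of 6 M-Z+ and 6 M-Z- embryos was used and the bisulfite libraries were not. The deposited values are raw counts and FPKM of each gene, as the authors made them. All FPKM values above 0.01 were recovered from the counts to within 0.1%, and were used only for the gene lengths that TPM and the length slope need. The submitters' processing notes list HISAT2 2.0.4 and the build mm10. Which program counted reads on genes, with which annotation, and whether it used strand, is not given in the sources used here. Positions overlapped those of RefSeq on GRCm38.p6 for 99.8% of 25595 genes matched by symbol. Dates stand in place of 27 symbols.

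The members and all gene lists were chosen with earlier results of these data known. The fits were made with edgeR 4.0.16 in R 4.3.3 (TMM, filterByExpr, glmQLFit and glmQLFTest, no covariate), DESeq2 1.42.0 and sva 3.50.0. Besides the members, the genes named were *Zfp57*, *Alb* and *Afp*, in each list but that of sex-linked genes the called genes or the 2 with the smallest unadjusted p and the most abundant one, and the 5 most like the members over embryos. Other genes named in the text, such as *Bhmt2*, *Itih2*, *Itih4* and *Psmd9*, were picked with their values in view. The edgeR fit was tested on simulated data with 15906 genes, of which 200 were changed by a factor of 2. It recovered 90% and made 6 false calls, and DESeq2 recovered 96% and made 22. Recovery was not taken separately for genes with counts as low as those of *Uroc1*, *Aldh8a1*, *Hal* and *Hpd*. These shares are therefore not read as the recovery of the members. Nothing in the labels says whether embryos share a litter. Alternatives were DESeq2, other filters, a block for the replicate number, 2 surrogate variables, the length slope or liver RNA as a covariate, each embryo left out and the unadjusted p. Leaving out 3 libraries together was added after the data were seen. A ninth gene of the chosen set and another enzyme are not reported here, and counts over lists leave them out, nor is a further gene that the naming rule picks.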

Additional observations from a re-analysis of the deposited data

Results flagged for a closer look

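Of 96 sets of 6 values examined, 3 had a sample standing apart by Dixon's test, where chance gives about 1 in 20, and none was among the 8 genes. *Acmsd*, an enzyme of tryptophan breakdown, had 2.23 CPM in M-Z+ 5 whereas the other M-Z+ embryos had 3.83 to 4.34 CPM. *Nr3c1*, the glucocorticoid receptor, had 40.5 CPM in M-Z- 5 whereas the other M-Z- embryos had 55.6 to 60.2 CPM. *Krt10*, a keratin of the upper epidermis, had 25.0 CPM in M-Z+ 3 whereas the other M-Z+ embryos had 4.84 to 9.33 CPM.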

How the results depend on the processing

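Over all genes, 13 were called by edgeR, 37 by DESeq2, 21 with the replicate block, 31 with 2 surrogate variables, 23 with the length slope, 37 with liver RNA as a covariate and 247 at an unadjusted p, and from 11 to 15 with 1 embryo left out. Of the 8 genes, 0 were called by edgeR, also with any 1 embryo left out, 5 by DESeq2, 4 with the replicate block, 5 with surrogate variables, 1 (*Cyp2c70*) with the length slope, 4 with liver RNA and 6 at an unadjusted p. Of the other amino acid enzymes 2 passed at an unadjusted p. Embryos were treated as unpaired, since nothing in the labels ties same-numbered embryos of the 2 genotypes. Whether the numbers pair them is not settled: the correlation of their deviations was above 0.1 for 5 of the 6 numbers and −0.0034 for the other, 5 of 12 embryos correlated best with their own number, and the 2 embryos of all 6 numbers matched in Y-linked reads. With the replicate block the standard error of *Bhmt* went from 0.270 to 0.127 and that of *Alb* from 0.238 to 0.105 (log2 fold change −0.33, edgeR adjusted p = 0.329). All 8 genes kept their direction under every alternative that gave a value. A mean of at least 50 counts left *Uroc1*, *Aldh8a1*, *Hal* and *Hpd* untested. With 1 embryo left out, the median of the 8 genes was −1.14 to −0.88, that of the other amino acid enzymes −0.26 to −0.11 and that of the abundant liver genes −0.37 to −0.15. With the length slope as a covariate the latter medians were −0.030 and −0.014, and with liver RNA −0.065 and −0.016, while that of the 8 genes was −0.85 and −0.81. In the same fits with 1 embryo left out, *Aldh8a1* was at −1.99 to −1.45, *Hal* at −0.71 to −0.35 and *Cps1* at −0.77 to −0.24. The log2 fold change of *Afp* turned to 0.041 with the length slope and to 0.037 with liver RNA, *Itih5* to −0.0069 with surrogate variables, *Abcb11* to 0.036 with liver RNA, and *Zfp57* ranged from −0.24 to 0.0042 with 1 embryo left out, the latter without M-Z+ 4. *Krt10* ranged from −0.62 to 0.041 (without M-Z+ 3) and *Lgals4* from −0.060 to 0.31 with 1 embryo left out, and *Lor* was at 0.037 with the length slope. *Lgals4* was at −0.12 with surrogate variables, −0.073 with the length slope and −0.15 without the 3 libraries. *Slc27a5* ranged from −0.68 to −0.21 and *Itih1* from −0.33 to −0.074 with 1 embryo left out. In the same fits *Hp* ranged from −0.62 to −0.27 and *Cdh17* from −0.42 to −0.032. The cause was not tested. Counts were low for 6 of the 8 genes. With liver RNA as a covariate, at the same counts, the standard error of *Hpd* went from 0.422 to 0.238 and that of *Hal* from 0.380 to 0.395. What sets the precision was not tested.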
